A study of Mus musculus with 12 samples.

Results

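The Serpina3 cluster is a tandem array of serine protease inhibitor (serpin) genes on mouse chromosome 12, and 6 of its copies were followed through 12 RNA-seq libraries: Serpina3c, Serpina3f, Serpina3g, Serpina3k, Serpina3m and Serpina3n. They are 6 of 24062 gene rows in the count tables, and a further 5 copies (Serpina3a, Serpina3b, Serpina3h, Serpina3i and Serpina3j) have rows as well. The 6 members were selected on results of these same libraries, so their levels and fold changes are a description and no p-value is given for them. The study asked how liver tumors respond to the loss of dietary tryptophan (Trp). Livers came from male MYC-ON mice of the FVB strain carrying LAP-tTA/TRE-MYC, in which the liver promoter LAP drives the tTA activator and withdrawal of doxycycline at birth turns on a MYC transgene carried by the Y chromosome. The labels state an age of 45 days for MYC males, for a comparison with wild-type livers, and the sources used here do not tie an age to the sequenced mice on the diets. Xenografts were HCC53N tumors, a single mouse liver cancer line that lacks p53 and overexpresses mutant NRAS, grown under the skin of immunodeficient NOD SCID female mice, which still have macrophages and other innate cells. The labels give the tumor cells as FVB MYC ON too. Mice were fed the control diet or a diet with no Trp (No-Trp) for 21 days, 3 mice per group and 1 library per mouse: control livers 101, 102 and 103, No-Trp livers 105, 107 and 108, control xenografts 40, 41 and 43, and No-Trp xenografts 35, 36 and 37.

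Serpins trap a protease by offering a bait loop that the enzyme cleaves, after which the inhibitor snaps shut and carries the enzyme away in an inactive complex. Humans have a single SERPINA3 gene, encoding the plasma protein alpha-1-antichymotrypsin, whereas rodents have expanded it to a cluster whose copies differ mainly in the bait loop and so in the proteases they block. Several copies are made by hepatocytes and secreted into plasma, and transcription of the cluster is known to answer to acute-phase cytokines acting through STAT3, to glucocorticoids and to growth hormone.

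On GRCm38.p6 (RefSeq) the 13 annotated copies lie within 302 kb, from 104112724 to 104414334 on chromosome 12, and 3 of them, Serpina3c among them, are on the minus strand. The promoters of Serpina3c and Serpina3n were the most alike of all promoter pairs compared, although the genes stand at different places in the array and on opposite strands. Whether this likeness bears on their levels was not tested. Over the 300 bases around each start site (250 before and 50 after, RefSeq), 89.9% of 306 alignment columns were identical, and the next most similar pair, Serpina3b and Serpina3n, reached 68.6%. The start site of a window is not always the outer end of the annotated gene. The Serpina3n gene begins at 104406646, the Serpina3c gene at 104153929 on the minus strand. The Serpina3j window, 104314320 to 104314619, lies inside a gene that begins at 104300722. The sequences of Serpina3c and Serpina3n are shown because they differ at few positions. Capitals mark the 25 bases of each that differ from the other or stand against a gap, Serpina3c from chr12:104153823-104154122 on the minus strand and Serpina3n from chr12:104406458-104406757 on the plus strand.
Serpina3c: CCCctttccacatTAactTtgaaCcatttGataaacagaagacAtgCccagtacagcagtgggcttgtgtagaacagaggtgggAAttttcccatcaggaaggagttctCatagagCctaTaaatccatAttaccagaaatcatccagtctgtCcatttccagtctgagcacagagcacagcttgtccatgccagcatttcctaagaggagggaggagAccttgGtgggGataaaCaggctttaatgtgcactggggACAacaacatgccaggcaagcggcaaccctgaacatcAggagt
Serpina3n: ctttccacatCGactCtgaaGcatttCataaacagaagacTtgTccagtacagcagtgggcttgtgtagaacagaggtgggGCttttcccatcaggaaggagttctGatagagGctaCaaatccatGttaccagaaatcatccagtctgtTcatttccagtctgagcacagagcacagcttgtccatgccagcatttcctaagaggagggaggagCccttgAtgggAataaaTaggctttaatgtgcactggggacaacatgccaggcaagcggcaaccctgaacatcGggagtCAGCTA

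The likeness was smaller in the transcripts, of which Serpina3c and Serpina3n shared 73.7% of alignment columns, while Serpina3c and Serpina3k shared 80.1%, the highest value between members. Columns with a gap count as not identical, so transcripts of unequal length score lower. The transcript of Serpina3m has 1659 bases and that of Serpina3k 2057, which lowers the 72.9% of this pair. These values therefore do not settle which pair is closest in the bases that align. RefSeq promoter sequences were matched for 4 of the 6 members and 8 of the 13 copies. Serpina3k and Serpina3m were not matched.

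**Figure D1:**
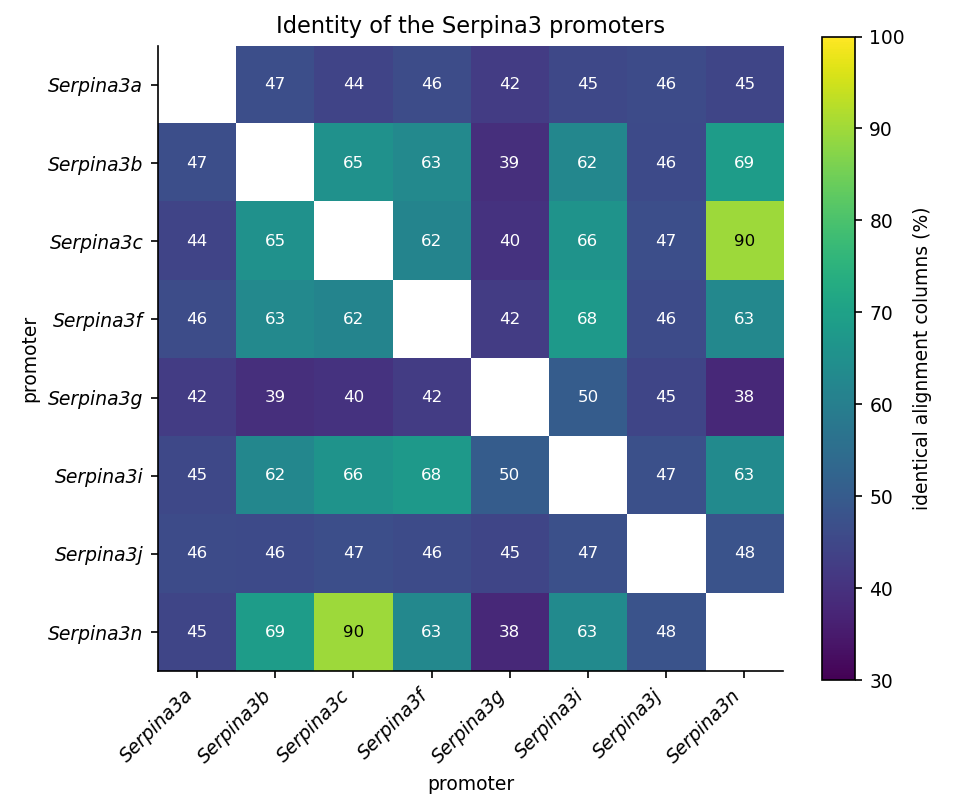
Percent of identical alignment columns between the promoters of 8 Serpina3 copies (300 bases each; for Serpina3f the first of 2 annotated start sites). Serpina3c and Serpina3n, at 89.9%, stand apart from every other pair, none of which exceeds 68.6%.

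Letters of known regulatory motifs were searched on both strands in the same windows. TTCNNNGAA, the palindrome bound by STAT factors, was found in the promoters of Serpina3f and Serpina3g and of the non-member Serpina3i, and 8.3% of 32851 mouse promoters of the same length hold it. The stretches below are cut around agaaatca, a run of 8 bases shared by these 3 promoters and those of Serpina3c and Serpina3n, with the STAT palindrome in capitals where these letters are present. They are 45 bases each and lie at chr12:104214410-104214454 (Serpina3f, plus), chr12:104236101-104236145 (Serpina3g, plus), chr12:104263007-104263051 (Serpina3i, plus), chr12:104153961-104154005 (Serpina3c, minus) and chr12:104406572-104406616 (Serpina3n, plus).
Serpina3f: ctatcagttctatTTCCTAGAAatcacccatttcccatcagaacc
Serpina3g: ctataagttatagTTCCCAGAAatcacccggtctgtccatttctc
Serpina3i: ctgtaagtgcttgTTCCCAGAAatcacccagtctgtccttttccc
Serpina3c: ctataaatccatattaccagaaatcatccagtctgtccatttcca
Serpina3n: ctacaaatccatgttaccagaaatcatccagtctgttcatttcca

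AGAACA, the core hexamer of glucocorticoid receptor sites, was matched in both Serpina3c (at -180 from the start site of its window) and Serpina3n (at -183). It was also matched in each other copy searched but Serpina3g, and in 19% of all promoters. The kappa-B motif of NF-kappa-B factors was matched in Serpina3g and Serpina3i, against 4.51% of all promoters. TTGCNNAA, a C/EBP core, was matched in Serpina3f and in the non-member Serpina3b (10.8% of all promoters), and TATAAA in Serpina3c and Serpina3f and in the non-members Serpina3a and Serpina3b (13.6%). An element of interferon regulatory factors was matched only in the non-member Serpina3a among the 8 copies searched (3.44%). These matches describe the letters of the windows and were not tied to binding.

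Since similar copies can exchange reads, the annotated transcripts were cut into all windows of 75 bases and each window was looked for in the transcripts of other genes. Between 90.4% (Serpina3m) and 99.7% (Serpina3c) of a member's windows occurred in no other gene. The windows shared by Serpina3k were all shared with Serpina3m. Serpina3g, with 91.1% of its windows to itself, shared the others with 5 copies, while Serpina3n had 98.5% of its windows to itself. The 6 members held 65.5% to 99.7% of the reads counted on the 11 copies, depending on the library.

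Libraries held 14660963 to 26085349 reads on genes. The share of reads not counted on genes separated the diets in the tumors. It was 32.2%, 28.5% and 39.4% in control tumors 40, 41 and 43 and 26.4%, 26.5% and 26.8% in No-Trp tumors 35, 36 and 37. Its part in the tumor values was not tested. Over the counts of all genes, control liver 101 differed most from the other controls. The chi-square per degree of freedom was 274 between 101 and 102, 240 between 101 and 103 and 165 between 102 and 103. In liver 101, 12.1% of the reads on genes fell on Rn45s, and 36.1% of its reads were not counted on genes. In hepatocyte markers it was control liver 102 that stood apart from controls 101 and 103. The summed level of 8 such markers was 50832 CPM (reads per 1000000, scaled with TMM factors over the 12 libraries) in 102. It was 16751 and 13278 in the others, and 55469 to 148945 in the No-Trp livers. In the xenografts the same sum was 1011 to 2621 CPM, and none of the 8 markers was at 0 reads in any library. In bulk tissue, fewer cells of a type and less RNA per cell cannot be told apart. The resubmission mark that 4 libraries carry in the deposit (livers 101 and 108, control xenografts 41 and 43) is not explained in the sources used here. Livers of males and tumors in female hosts also differ in sex, host and site, which cannot be told apart from the model.

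In livers on the control diet, Serpina3k was the most abundant member by mean. Serpina3k encodes a plasma serpin that binds tissue kallikrein and trypsin-like enzymes. Its level was 65.7, 2944 and 84.6 CPM in mice 101, 102 and 103, so a single mouse carried the group mean, 1032 ± 1656 CPM (SD, n = 3). In No-Trp livers it was 1645, 2866 and 921 CPM in mice 105, 107 and 108, or 1811 ± 983 CPM (SD, n = 3). All 3 No-Trp mice lay above controls 101 and 103, whereas 102 lay above all of them, so the groups overlapped. The log2 fold change was 0.84 ± 1.37 (SE, edgeR) with all 6 livers and 4.59 ± 0.57 without mouse 102.

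Serpina3n is an extracellular inhibitor of granzyme B, cathepsin G and neutrophil elastase. It was at 25.1, 216 and 107 CPM in control livers 101, 102 and 103. In No-Trp livers 105, 107 and 108 it was at 351, 506 and 235 CPM, each of them above each control. The log2 fold change was 1.67 ± 0.71 (SE), which edgeR did not call, and 2.45 ± 0.65 without mouse 102.

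Serpina3m, whose transcript shares 72.9% of alignment columns with that of Serpina3k, had the largest fitted log2 fold change of the members with all 6 livers, whereas without mouse 102 that of Serpina3k was larger. It was at 6.37, 49.1 and 13.2 CPM in control livers 101, 102 and 103. In No-Trp livers it reached 178, 267 and 159 CPM in mice 105, 107 and 108. The groups were far apart, since the lowest No-Trp mouse was 3.23 times the highest control. The log2 fold change was 3.16 ± 0.74 (SE), and 4.36 ± 0.43 without mouse 102.

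Serpina3c, a kallikrein-binding serpin close to Serpina3k in its transcript, followed the pattern of Serpina3k in the livers at a much lower level. It was at 0.72, 13.7 and 0.44 CPM in control livers 101, 102 and 103. In No-Trp livers it was at 8.58, 14.1 and 3.57 CPM in mice 105, 107 and 108. Control 102 sat among the No-Trp mice, and the log2 fold change moved from 0.87 ± 1.21 (SE) to 3.92 ± 0.69 without it.

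Serpina3g, also named Spi2A, is an intracellular inhibitor of lysosomal cysteine cathepsins and is best known from activated T cells and macrophages. In the livers it held 16 to 58 reads per library, and 1.4, 2.76 and 2.32 CPM in the controls overlapped with 2.97, 0.98 and 3.57 CPM in the No-Trp mice (log2 fold change 0.23 ± 0.52, SE). Serpina3f, whose transcript shares 71.4% of alignment columns with that of Serpina3g, held 20 to 62 reads per library. Its controls were at 0.96, 2.31 and 2.08 CPM and its No-Trp livers at 3.49, 1.97 and 4.82 CPM (log2 fold change 0.95 ± 0.47, SE). For both genes the diets overlapped, with or without mouse 102.

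**Figure D2:**
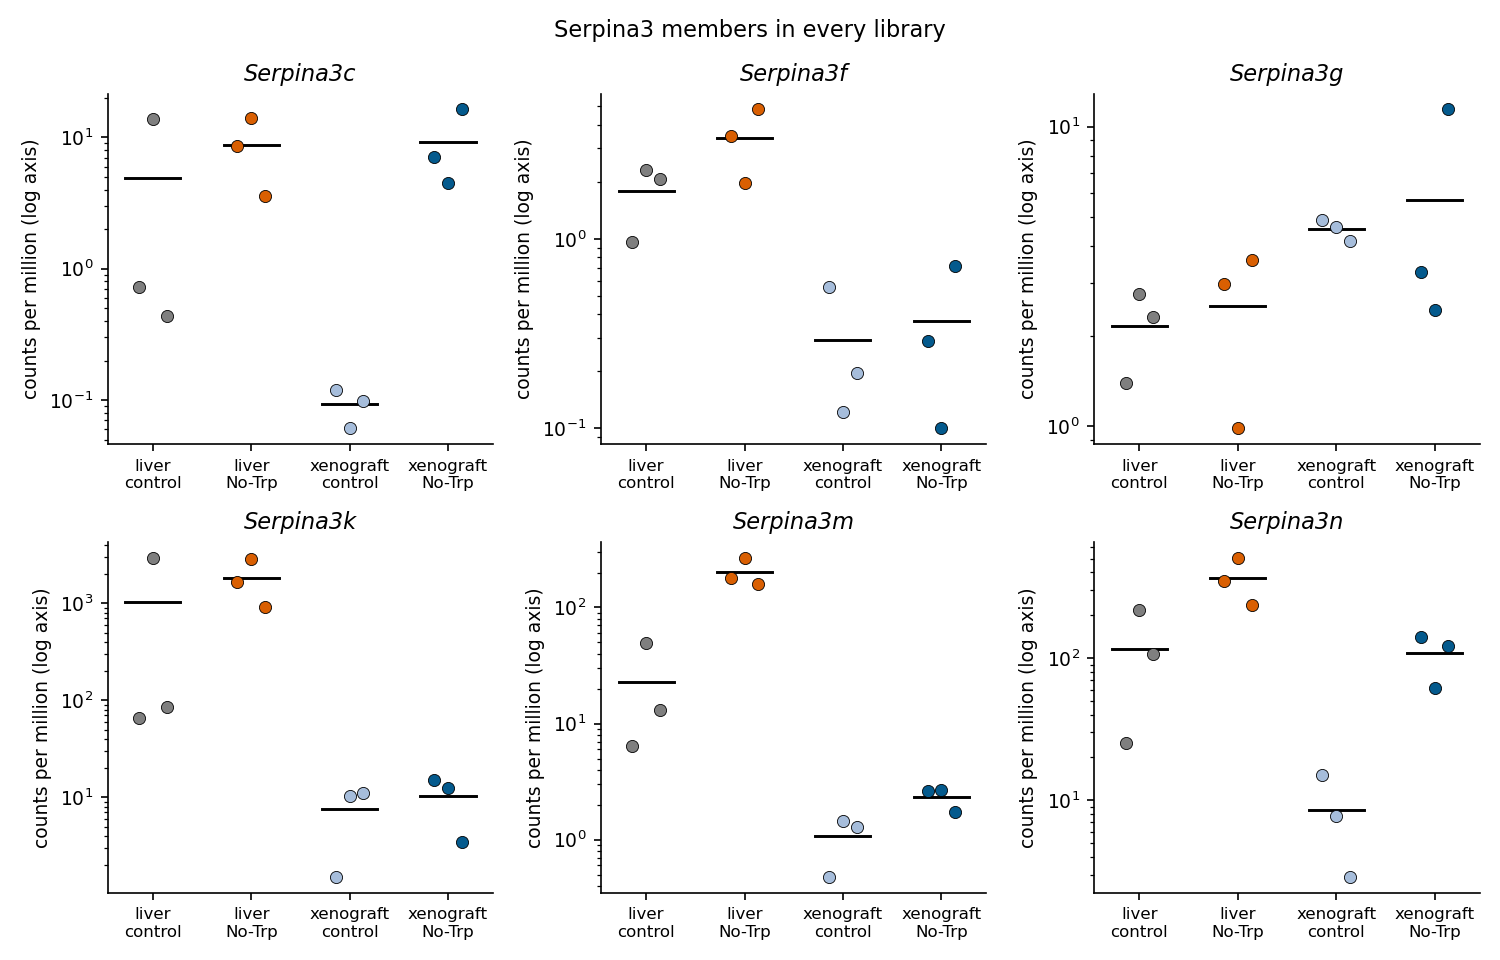
Level of each member in every library (CPM, log axis; points are mice, bars are group means). In the livers one control mouse, 102, lies above every No-Trp mouse for Serpina3k and among the No-Trp mice for Serpina3c. In the xenografts the diets are fully separate for Serpina3c and Serpina3n.

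Counted over the members, all 6 had a positive log2 fold change in the livers, with a median of 0.91 against -0.0031 over the 14122 genes tested. Of the 6, 1 was called higher (Serpina3m; adjusted p at most 0.05 and log2 fold change at least 1, edgeR) and 0 lower, in a comparison that called 9.28% of all genes tested higher and 7.27% lower. Every No-Trp library lay above every control library for 2 of 6 members, Serpina3m and Serpina3n, and for 23.6% of all genes tested. DESeq2 also called Serpina3n, beside 10.6% of all genes. Without mouse 102, 4 of 6 members were called higher (Serpina3c, Serpina3k, Serpina3m and Serpina3n), beside 13.6% of all genes. Since the members were chosen with these fold changes known, nothing is read from the counts. The call of Serpina3m was lost when control 101, control 103, No-Trp liver 105 or No-Trp liver 107 was left out, with log2 fold changes from 2.72 to 4.36 over the 6 omissions, and with no filter on low counts.

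The summed level of 8 hepatocyte markers was also higher in every No-Trp liver than in every control liver, but not every member followed it. Liver 107 had the highest sum, 148945 CPM, and the lowest Serpina3g level of the livers, 0.98 CPM. Per 1000 CPM of these markers, Serpina3k stood at 3.92, 57.9 and 6.37 CPM in control livers 101, 102 and 103 and at 22.4, 19.2 and 16.6 CPM in the No-Trp livers 105, 107 and 108. Serpina3m stood at 0.38, 0.97 and 0.99 CPM in the controls and 2.43, 1.79 and 2.86 CPM in the No-Trp mice on the same scale, with no overlap. Serpina3n stood at 1.5, 4.25 and 8.06 CPM in the controls and at 4.78, 3.40 and 4.24 CPM in the No-Trp mice, and here the diets overlapped. All 8 hepatocyte markers had a positive log2 fold change, 4 of them called higher (median 1.66). Other markers separated the diets in the livers as well. The sum of 6 endothelial markers was 89.6 to 182 CPM in the controls and 195 to 343 CPM in the No-Trp livers, with 2 of 6 called higher and none at 0 reads. The sum of 7 erythroid markers was 45.1 to 495 CPM in the controls and 7.15 to 18.3 CPM in the No-Trp livers, with all 3 tested called lower and 3 or 4 of the 7, all of them globin genes, at 0 reads in each liver. What part the content of these cell types has in the member values was not tested.

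In the xenografts the member that stood out was Serpina3c. It had 2, 3 and 1 reads in control tumors 40, 41 and 43, and 194, 135 and 385 reads in No-Trp tumors 35, 36 and 37. Scaled to depth, these are 0.10, 0.12 and 0.06 CPM against 7.04, 4.50 and 16.3 CPM, with no overlap between the diets. The ratio of the summed reads, 714 against 6 and scaled to library size, was 90.8, with a 95% interval of 41.5 to 248 (exact conditional binomial, counting error only). The fitted log2 fold change was 6.52 ± 0.69 (SE), which leans on the few control reads.

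Serpina3n was the most abundant member of the No-Trp tumors. Control tumors 40, 41 and 43 held 2.89, 15.2 and 7.74 CPM. No-Trp tumors 35, 36 and 37 held 141, 62.0 and 122 CPM. The lowest No-Trp tumor was 4.09 times the highest control, and the log2 fold change was 3.63 ± 0.62 (SE), which edgeR did not call.

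The other 4 members gave smaller differences in the tumors. Serpina3m was at 1.27, 0.48 and 1.46 CPM in the controls and at 2.61, 2.7 and 1.74 CPM in the No-Trp tumors, also without overlap (log2 fold change 1.13 ± 0.50, SE), from 12 to 81 reads per library. Serpina3k was at 11, 1.52 and 10.3 CPM in control tumors 40, 41 and 43 and at 15.2, 12.4 and 3.44 CPM in No-Trp tumors 35, 36 and 37, and the diets overlapped (0.43 ± 0.78, SE). Serpina3g was at 4.17, 4.86 and 4.63 CPM in the controls. In the No-Trp tumors it was at 3.26, 2.43 and 11.4 CPM, with tumor 37 above and the other two below every control (0.32 ± 0.56, SE). Serpina3f held 2 to 17 reads per tumor and was not tested there.

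Over the 5 members tested in the xenografts all log2 fold changes were positive, with a median of 1.13 against -0.0045 over the 14704 genes tested. Of the 5, 1 was called higher (Serpina3c) and 0 lower, in a comparison that called 0.245% of genes higher and 0.116% lower. Every No-Trp tumor lay above every control tumor for 3 of the 6 members (Serpina3c, Serpina3m and Serpina3n), and for 10.7% of the genes tested. DESeq2 called both Serpina3c and Serpina3n, beside 1.63% of all genes. With the resubmission mark as a covariate, neither was called by edgeR, at log2 fold changes of 6.49 ± 1.20 and 5.22 ± 0.75 (SE). Both resubmitted tumors are controls, so a contrast of the diets among unmarked tumors rests on control tumor 40 alone. The call of Serpina3c was also lost without control tumor 41 or 43.

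Adipocyte markers moved with Serpina3c and Serpina3n in the tumors. The summed level of 5 such markers (Adipoq, Plin1, Cidec, Cfd and Fabp4) was 14.2, 68.8 and 15.6 CPM in control tumors 40, 41 and 43 and 501, 388 and 819 CPM in No-Trp tumors 35, 36 and 37. All 5 had a positive log2 fold change and 3 were called higher, among them Plin1, the coat protein of fat droplets (5.48 ± 0.50, SE, edgeR adjusted p 0.00956). None of the 5 was at 0 reads in any tumor. Serpina3n stood at 204, 220 and 496 CPM per 1000 CPM of adipocyte markers in control tumors 40, 41 and 43 and at 281, 160 and 149 CPM in No-Trp tumors 35, 36 and 37, so on this scale the diets overlapped. Serpina3c stood at 6.92, 1.74 and 3.91 CPM in the controls and 14, 11.6 and 19.9 CPM in the No-Trp tumors, without overlap. The sum of 8 macrophage markers was also higher, 205 to 317 CPM against 381 to 592 CPM, as was that of 6 neutrophil markers, 12 to 16.1 CPM against 18.4 to 27.9 CPM. The part of any of these cell types in the member values was not tested.

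**Figure D3:**
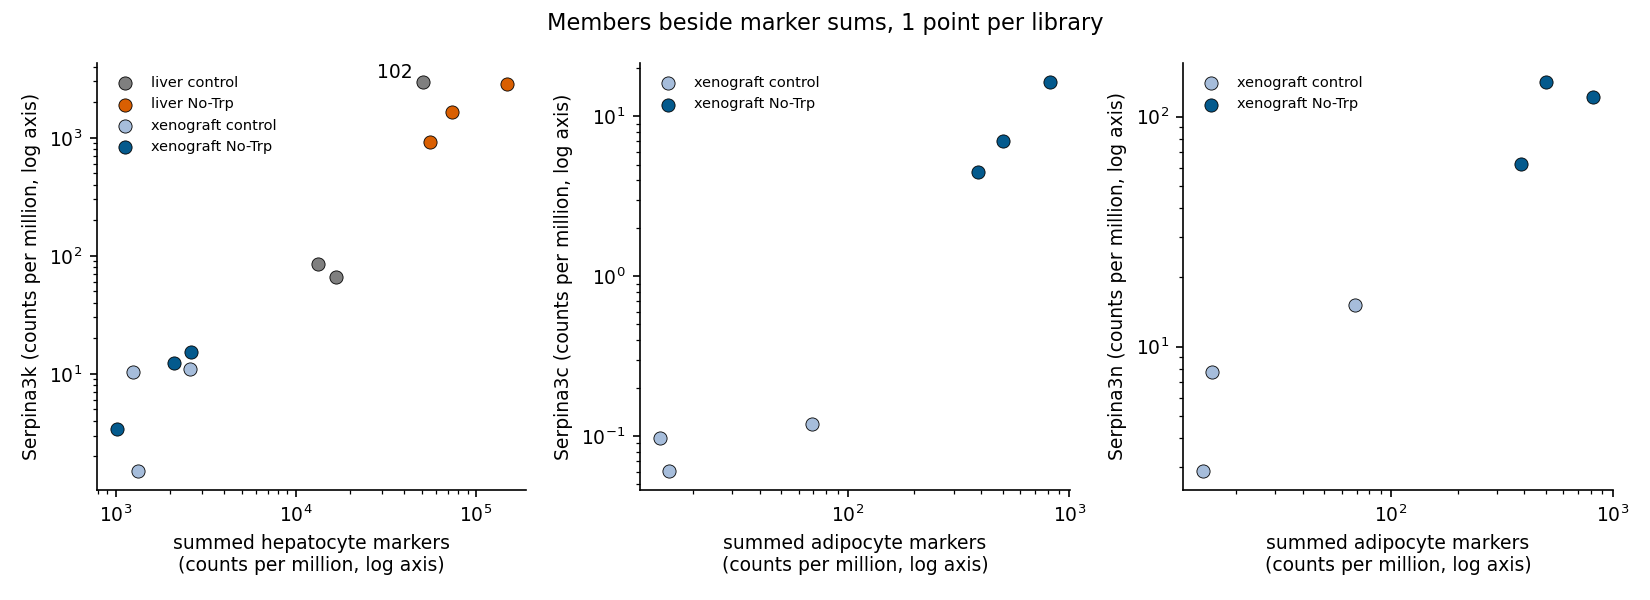
Members against summed marker levels (CPM, log axes; 1 point per library). Left, Serpina3k and 8 hepatocyte markers in all 12 libraries, with control liver 102 labelled; middle and right, Serpina3c and Serpina3n against 5 adipocyte markers in the 6 xenografts, where the 3 No-Trp tumors are high for both.

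**Figure D4:**
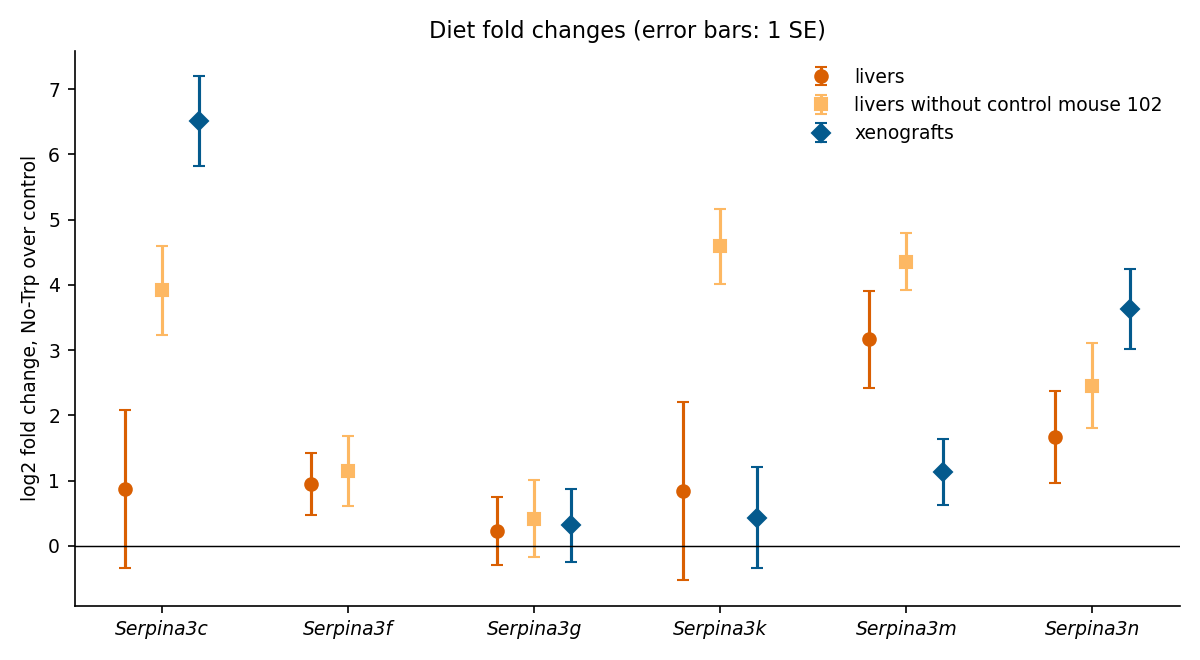
Log2 fold change of each member, No-Trp over control, with 1 SE, in the livers, in the livers without control mouse 102 and in the xenografts. Serpina3k and Serpina3c in the livers move most when mouse 102 is left out, Serpina3c has the largest value in the xenografts (from 6 reads in all control tumors), and Serpina3f was not tested there.

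The composition of the cluster differed between the models. In the livers, Serpina3k contributed 40.3% to 91.2% of the reads of the 6 members in the controls and 69.4% to 78.4% in the No-Trp mice. In the No-Trp tumors Serpina3n contributed 73.6% to 83.2%, Serpina3c 4.15% to 10.5% and Serpina3k 2.21% to 14.8%. In the control tumors no member dominated in all 3: Serpina3n made up 66.8% in tumor 41, and Serpina3k 56.1% in tumor 40 and 42.4% in tumor 43. Serpina3g took 19% to 21.4% of the reads in the control tumors, against at most 1.4% in any liver.

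**Figure D5:**
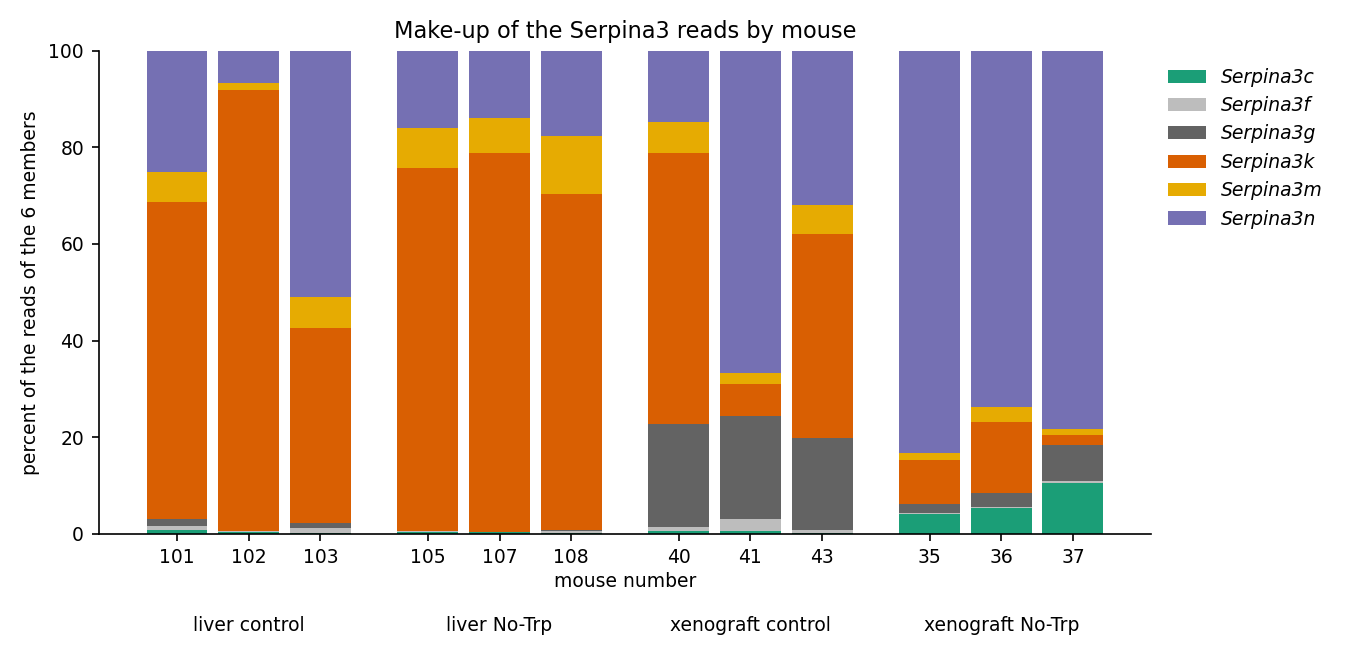
Percent of the reads of the 6 members that fell on each of them, by mouse and group. Serpina3k takes most of the reads in 5 of the 6 livers, and Serpina3n takes 73.6% or more in the 3 No-Trp tumors.

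Per kilobase of transcript, the order of the mean levels in the No-Trp livers was Serpina3k (880 CPM per kilobase), Serpina3n (176), Serpina3m (121), Serpina3c (3.95), Serpina3f (1.52) and Serpina3g (1.39). Of these neighbours, Serpina3n and Serpina3m overlapped in range, as did Serpina3c with Serpina3f and Serpina3f with Serpina3g. In the control livers the order was Serpina3k (501), Serpina3n (56.3), Serpina3m (13.8), Serpina3c (2.24), Serpina3g (1.20) and Serpina3f (0.79), and every neighbouring pair overlapped. In the control tumors it was Serpina3n (4.16), Serpina3k (3.70), Serpina3g (2.53), Serpina3m (0.65), Serpina3f (0.13) and Serpina3c (0.042), with overlap among the first 3. In the No-Trp tumors it was Serpina3n (52.4), Serpina3k (5.04), Serpina3c (4.20), Serpina3g (3.16), Serpina3m (1.42) and Serpina3f (0.16). There Serpina3n stood clear of all others, and Serpina3c had moved from the last place to the third, in overlap with Serpina3k and Serpina3g.

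Tumors and livers were then compared on each diet. On the control diet, Serpina3k was lower in the tumors by the largest margin (log2 fold change -7.09 ± 1.58, SE), followed by Serpina3c (-5.59 ± 1.44), Serpina3m (-4.45 ± 0.72), Serpina3n (-3.75 ± 0.77) and Serpina3f (-2.53 ± 0.73). All 5 were called lower, beside 20.2% of all genes, and 0 were called higher, beside 23.3%. Without liver 102 the values of Serpina3k and Serpina3c were -3.35 and -2.55, and the 5 calls were still made. Serpina3g was the exception, at 1.08 ± 0.59 (SE) and not called, with every control tumor above every control liver. On the No-Trp diet 4 members were called lower in the tumors, beside 19.1% of genes, and 0 higher, beside 24.5%. Serpina3k (-7.44 ± 1.60, SE), Serpina3m (-6.41 ± 0.74) and Serpina3f (-3.22 ± 0.72) had a wide gap. Serpina3n was at -1.75 ± 0.70, a call made in 4 of 12 fits with a library left out, and Serpina3c was at 0.08 ± 1.00, which left Serpina3c at 8.74 ± 5.25 CPM in the livers and 9.29 ± 6.23 CPM in the tumors (SD, n = 3 each).

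The difference of the diet effect between the models, taken as the interaction term over all 12 libraries, was 5.67 ± 1.76 (SE, log2) for Serpina3c, the member that met the call rule, beside 12.7% of all genes. It was 2.00 ± 0.99 for Serpina3n, -1.96 ± 0.94 for Serpina3m, -0.69 ± 1.01 for Serpina3f, -0.35 ± 1.73 for Serpina3k and 0.11 ± 0.84 for Serpina3g. Without liver 102, Serpina3c was at 2.60 ± 1.02 and was not called, while Serpina3k (-4.12 ± 1.04) and Serpina3m (-3.16 ± 0.59) were called, beside 16.2% of all genes. The call of Serpina3c was made in 2 of 12 fits with a library left out, those without control liver 101 or 103. The sum of the 6 members, treated as 1 row, changed sign with that mouse, from 1.60 to -1.32.

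Of the 5 copies outside the members, Serpina3h held the most reads, with 531 in all control tumors (8.67 ± 4.15 CPM, SD, n = 3) beside 566 of Serpina3n (8.59 ± 6.18 CPM), and 777 in the No-Trp tumors. Serpina3h, annotated as a transcribed pseudogene, was called higher in the No-Trp livers, from 5.31, 7.04 and 5.11 CPM in controls 101, 102 and 103 to 15.1, 9.47 and 15.3 CPM in mice 105, 107 and 108 (1.21 ± 0.28, SE, edgeR adjusted p 0.0268). This call was lost with library totals and without control 101, control 103, No-Trp liver 105 or No-Trp liver 108. In the tumors it gave 0.12 ± 0.41 (adjusted p 0.91). Serpina3h is among the copies that share windows of 75 bases with Serpina3f and Serpina3g. How many of its own windows occur in no other gene was not measured. Serpina3i gave 0.58 ± 0.45 in the livers and 1.04 ± 0.53 in the tumors (adjusted p 0.37 and 0.35). Serpina3a, Serpina3b and Serpina3j held at most 24 reads in a group and were not tested within either model.

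The neighbours considered next are other serpins of clade A on the same chromosome. Of all genes tested, edgeR called 9.28% higher and 7.27% lower in the livers, and 0.245% and 0.116% in the tumors. Of 11 tested neighbours in the livers 0 were called higher and 1 lower, Serpina12 (vaspin), at 5.50, 65.1 and 7.47 CPM in the controls and 1.94, 2.27 and 1.32 CPM in the No-Trp mice (-3.77 ± 1.03, SE, edgeR adjusted p 0.0401), where mouse 102 was again the high control and DESeq2 called 0 of the 11. In the tumors 0 of 7 tested neighbours were called by edgeR, with 1 at an unadjusted p under 0.05 and 0 called by DESeq2. Of 17 tested serpins elsewhere in the genome, 2 were called higher and 2 lower in the livers, among them Serpina7, the thyroxine-binding globulin (4.76 ± 0.48, adjusted p 0.0108), Agt, which encodes angiotensinogen (1.78 ± 0.41, adjusted p 0.0268), and Serpinh1, a collagen chaperone (-1.62 ± 0.39, adjusted p 0.0293). In the tumors edgeR called 0 of 18, with 4 at an unadjusted p under 0.05, and DESeq2 called 2.

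A list of proteases was followed that also holds the pore protein Prf1, and not all of its genes encode targets of these inhibitors. In the No-Trp livers 1 of 16 tested was called higher and 2 lower, beside 9.28% and 7.27% of all genes. Ctsl, a lysosomal cysteine protease (cathepsin L), rose from 506 ± 31.8 to 3249 ± 1031 CPM (SD, n = 3 each; 2.7 ± 0.32, SE, edgeR adjusted p 0.0127), while the neutrophil proteases Elane (-3.38 ± 0.80, adjusted p 0.0291) and Prtn3 (-3.40 ± 0.93, adjusted p 0.0401) fell. The summed level of 6 neutrophil markers was 72.0 to 174 CPM in the control livers and 10.4 to 88.3 CPM in the No-Trp livers, and its part in these values was not tested. In the tumors 0 of 15 were called by edgeR (2 at an unadjusted p under 0.05, 0 by DESeq2), and Ctsl was at -0.48 ± 0.19 (adjusted p 0.25).

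The known upstream pathways were described from lists of their genes. For scale, edgeR called 9.28% of all genes tested higher and 7.27% lower in the livers, and 0.245% and 0.116% in the tumors. Over all lists outside the members, 26 genes were called in the livers. Left-out libraries moved this count to 51 without control 102, to 0 without control 103, and to 6, 7 and 15 without control 101, No-Trp liver 105 and No-Trp liver 107. In the tumors 3 were called, 5 without control 40 or No-Trp tumor 36, 1 without control 41, control 43 or No-Trp tumor 35, and 0 without No-Trp tumor 37. The hepatocyte marker sum, given above, was also higher in the No-Trp livers, and the adipocyte marker sum in the No-Trp tumors. The part of either sum in the values of these lists was not tested. Of 16 genes of the IL-6 and STAT3 axis, 4 were called higher in the livers and 0 lower, including the receptor Il6ra (1.80 ± 0.51, SE, edgeR adjusted p 0.0426) and the transcription factor Cebpb (1.9 ± 0.27, adjusted p 0.0142). In the tumors 0 were called higher and 1 lower, Cebpb, at -1.25 ± 0.16 (adjusted p 0.0235). The feedback gene Socs3 was at -0.20 ± 0.44 in the livers and -0.18 ± 0.15 in the tumors (adjusted p 0.76 and 0.59), and Stat3 at 0.72 ± 0.24 and 0.02 ± 0.16 (adjusted p 0.0607 and 0.97). Of the 11 genes of the glucocorticoid list 5 were called higher in the livers and 0 lower, with Fkbp5 (1.79 ± 0.19, adjusted p 0.0108), Sgk1 (2.36 ± 0.31, adjusted p 0.0136) and Tat (4.43 ± 1.06, adjusted p 0.0298) among them. In the tumors 1 was called, Hsd11b1, the enzyme that regenerates active glucocorticoid (2.35 ± 0.25, adjusted p 0.0137). The receptor gene Nr3c1 gave 0.38 ± 0.20 and 0.08 ± 0.15 (adjusted p 0.18 and 0.82).

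Of the 15 growth hormone and STAT5 genes tested in the livers 2 were called higher, beside 9.28% of all genes, and 0 lower, beside 7.27%. The 2 were Socs2 (2.40 ± 0.47, SE, edgeR adjusted p 0.0211) and Trim24 (1.36 ± 0.19, adjusted p 0.0146), while DESeq2 called 5 of the list. Left-out libraries moved the edgeR count to between 0 (without control 101 or 103) and 9 (without control 102). Ghr gave 0.94 ± 0.41 and Igf1 1.81 ± 0.87 (adjusted p 0.13 and 0.16). In the tumors 0 of 12 were called by edgeR, with 2 at an unadjusted p under 0.05 and 0 called by DESeq2. Of the interferon-gamma genes, 1 of 30 was called higher in the livers, beside the same 9.28%, namely Nlrc5 (1.49 ± 0.36, adjusted p 0.0294). In the tumors 0 of 31 were called, where 0.245% of all genes were called higher (2 at an unadjusted p under 0.05, 0 by DESeq2). Ifng, tested in the tumors, gave 0.49 ± 0.90 (SE, edgeR adjusted p 0.83).

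Acute-phase genes outside the cluster were called in both directions in the livers. Among all genes tested, edgeR called 9.28% higher and 7.27% lower there, and 0.245% higher in the tumors. Of 19 tested, 3 were called higher and 2 lower: Apcs, the serum amyloid P component, gave 5.28 ± 0.49 (SE, edgeR adjusted p 0.00761), while Saa1 and Saa2, the inducible serum amyloid A genes, gave -3.38 ± 0.64 and -4.61 ± 1.05 (adjusted p 0.02 and 0.0263). DESeq2 called 14 of the list in the livers and 6 in the tumors, and edgeR with resubmission as a covariate called 10 and 0. Without control 102 edgeR called 10 in the livers, and 0 to 4 without another library. In the tumors 1 of 18 was called higher, Steap4, a metalloreductase (2.53 ± 0.33, adjusted p 0.0258), and Hp (haptoglobin) was at 2.99 ± 0.45 (adjusted p 0.0506), Lcn2 at 2.93 ± 0.50 (adjusted p 0.0594) and Orm1 at 3.0 ± 0.54 (adjusted p 0.0551), with every No-Trp tumor above every control tumor for these 4 genes. The adipocyte marker sum separated the tumors in the same way, at 14.2 to 68.8 CPM in controls and 388 to 819 CPM in No-Trp tumors. Its part in these values was not tested.

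The genes whose pattern over the libraries was most like that of each member were found by Pearson r of log2 CPM among genes with a mean of at least 100 reads. Over the 6 livers, Serpina3c was closest to Gulo, an enzyme of vitamin C synthesis (r = 0.998), Serpina3k to Rgn, regucalcin (0.993), Serpina3m to Cpt1a, which admits fatty acids to mitochondria (0.999), and Serpina3n to Tnrc18 (0.997). Over the 6 tumors, Serpina3c was closest to the mitotic gene Cdc20 (0.997) and Serpina3n to the peroxisomal transporter Abcd2 (0.994). Serpina3k was closest to Prox2 (0.991) and Serpina3g to Lztfl1 (0.984). Serpina3c passed the read limit in the tumors only through the No-Trp group. Its control tumors held 1 to 3 reads, so single reads set its control values and no link to Cdc20 is read from this r. Each of these genes was the highest of 10756 (livers) or 11298 (tumors) genes over 6 libraries that share diet groups, so these are descriptions. Serpina3f in both models, Serpina3g in the livers and Serpina3m in the tumors were below the read limit.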

How the data were processed

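Unnormalized read counts for each gene symbol were deposited. Per the labels and the study's methods, the authors made them from polyadenylated RNA, trimming with Trim Galore, alignment with STAR 2.7.2b to the mm10 genome (SAMtools 1.9) and HTSeq. The strand setting and the handling of overlapping genes are not given in the sources used here. Reads with several alignments, 5.24% to 8.52% of the reads of a library, and other reads not counted on genes were left out of library sizes.

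The counts were tested over all genes with edgeR 4.0.16 in R 4.3.3 (TMM, filterByExpr, robust glmQLFit, glmQLFTest, two-sided, Benjamini-Hochberg), within each model for diet and over all 12 libraries for the models and the interaction. A call required an adjusted p no larger than 0.05 with an absolute log2 fold change of 1 or more. The SE is the log2 fold change divided by the root of F. Levels are CPM with TMM factors over 12 libraries. edgeR's spread between mice was 31.6% in livers and 28.7% in xenografts, and nothing says that replicates differ in more than the mouse. The step was tested on simulated data with less spread than between these mice and with changes only in well-counted genes. That test does not cover members with few reads. The members and gene lists were chosen with earlier results of these data known. Named genes are the members, up to 4 genes of each list with the smallest adjusted p, copies and neighbours that were called, the genes most like each member, and a fixed set of upstream genes, of which 1 is not reported here. The values of Serpina3i were added after they were seen. Alternatives were DESeq2 1.42.0, RLE factors, library totals, no filter, a minimum of 10 counts per library, the resubmission mark as a covariate, leaving out Rn45s, no threshold on the fold change, one fit over 12 libraries, coding length, the summed members, and leaving out each library.

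Positions and promoters are from RefSeq (GRCm38.p6), transcripts from GENCODE M21. Pairs were aligned globally with Biopython 1.88 (match 1, mismatch -1, gap opening -3, extension -0.5). Intervals cover counting error only.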

Additional observations from a re-analysis of the deposited data

Results flagged for a closer look

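The diet effect on Serpina3c was larger in the xenografts than in the livers by 5.67 on the log2 scale, and it is listed here because the interaction term of edgeR called it between the models. Control tumors held 1 to 3 reads of the gene, and without control liver 102 the value was 2.60 and not called. It was called in 2 of 12 fits with a library left out. Groups of 3 mice are too small for a test of single outlying libraries.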

How the results depend on the processing

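The 518 member fold changes recomputed under the alternatives changed the sign of a called value in 0 cases, and 498 moved by less than the spread between mice; of the 20 that moved by more, 8 were without control liver 102. In the livers, 1 member was called higher, 2 by DESeq2 or with resubmission as a covariate, 0 with no filter on low counts, and 0 to 4 with a library left out. In the xenografts, 1 was called higher, 2 by DESeq2, 0 with at least 10 counts in every library (which removes Serpina3c), with resubmission as a covariate or in one fit over all 12 libraries, and 0 to 1 with a library left out. For the difference between the models, 1 was called higher, 0 with RLE factors, with no filter, with at least 10 counts in every library, with resubmission or without Rn45s, and 0 to 1 (higher) and 0 to 2 (lower) with a library left out. The 5 members called lower in control xenografts became 3 with at least 10 counts in every library, and with a library left out the count was 5 throughout. On the No-Trp diet the members called higher against the livers were 0, 1 with library totals, and 0 to 1 with a library left out, and those called lower were 3 to 4. The causes were not tested.

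Genes of the other lists called numbered 26 in the livers (41 by DESeq2, 17 with library totals, 0 to 51 with a library left out), 3 in the xenografts (11 by DESeq2, 0 with resubmission or one fit, 0 to 5 with a library left out) and 19 for the difference (32 by DESeq2, 13 to 26 with a library left out). Over all genes tested, edgeR called 53 in the xenografts and DESeq2 380. By coding length, 18 of 24 places in the order of the members were the same. No paired analysis was possible because the groups compared share no replicate numbers. Depth limits Serpina3f in the xenografts and Serpina3c in the control xenografts, where single reads set the level.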
